A study of Mus musculus with 12 samples.

Results

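The epidermal growth factor (EGF) receptor family, also called the ERBB family, was described in kidney RNA from WT mice and from 2 mouse groups with polycystic kidney disease. The 10 members were 6 ligands (*Egf*, *Hbegf*, *Tgfa*, *Areg*, *Ereg* and *Btc*) and the 4 receptors (*Egfr*, *Erbb2*, *Erbb3* and *Erbb4*), taken by gene symbol from a table of 35275 genes. Each symbol had a single row. The ligands are made as membrane-anchored precursors that proteases cut free, and a bound receptor pairs with a second receptor of the family and signals through Ras and ERK and through PI3 kinase. *Egf* is made in the kidney by cells of the thick ascending limb and the distal convoluted tubule, and it has long been studied as a gene of the healthy distal nephron. ERBB2 binds no known ligand and ERBB3 has a weak kinase, so that both act mainly as partners in pairs, and receptors of the family have been found on the apical face of cyst-lining cells.

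RNA had been sequenced from the kidneys of 12 mice of the C57BL/6J strain at 6 months of age, in 3 groups of 4 with 2 females and 2 males in each. The groups were WT, *Pkd1*RC/RC (RC/RC), which carries a hypomorphic missense allele of *Pkd1* on both chromosomes in every cell, and RC/RC mice that were also homozygous for a deletion in *Casp1* (RC/RC:*Casp1*KO, below the knockout mice). The last 2 groups therefore shared the *Pkd1* genotype. The *Casp1* deletion was a single TALEN-made allele present in all tissues, so it was not limited to tubules or leukocytes, and no *Casp1* knockout on a WT *Pkd1* background was analysed here. The columns name the group and a mouse number and give neither the sex nor the replicate number, so females and males were analysed together and the spread within a group includes any difference between the sexes. The depth per mouse was 18019819 to 24869454 reads counted on genes, and within a group every pair of mice differed beyond sampling noise (chi-square divided by its degrees of freedom, 15.7 to 128). WT mice B6_2 and B6_3 (17.7) and B6_4 and B6_6 (16.4) were closer to each other than across these pairs (89.8 to 127), as were knockout mice Del3_60 and Del3_105 (15.7) and Del3_42 and Del3_70 (31.8, beside 67.1 to 93.4 across). In RC/RC mice RC140 and RC143 were closest (37.2), and the other pairs were at 67.6 to 128. The part of sex in these pairs was not tested, since the columns do not give it. Levels are given as FPKM, reads scaled to the length of the gene and to the library total, with TMM factors applied to the totals.

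*Casp1*, which the knockout targets, was measured at 1.37, 0.863, 0.867 and 0.939 FPKM in WT mice B6_2, B6_3, B6_4 and B6_6. The RC/RC mice RC105, RC139, RC140 and RC143 had 2.25, 2.56, 2.85 and 1.75 FPKM, and the knockout mice Del3_42, Del3_60, Del3_70 and Del3_105 had 0.444, 0.257, 0.698 and 0.444 FPKM. The knockout mice were the lowest of the 3 groups and none overlapped another group. The level was lower in knockout than in RC/RC mice with a log2 fold change of −2.35 (SE 0.32, adjusted p = 0.00514, quasi-likelihood test of edgeR, adjusted by Benjamini-Hochberg as are all p-values below). *Pkd1* RNA gives no check of a missense allele, and its mean was 3.73 ± 0.949, 3.90 ± 0.685 and 5.04 ± 0.864 FPKM (SD, n = 4 each) in WT, RC/RC and knockout mice. Markers of kidney tubules were present in every mouse. *Slc34a1*, the phosphate transporter of the proximal tubule, was at 660 FPKM or more in every mouse, *Umod*, the uromodulin of the thick ascending limb, at 952 or more, and *Aqp2*, the water channel of the collecting duct, at 101 or more. Of the kidney cell markers examined, *Avpr2*, the vasopressin receptor, was close to 0, at 0 to 0.114 FPKM.

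A pair of mice stood apart from their groups. RC/RC mouse RC105 had the highest *Egf*, *Tgfa*, *Btc*, *Erbb2*, *Erbb3* and *Erbb4* of the RC/RC mice. Knockout mouse Del3_70 had 20.7 FPKM of *Havcr1* and 45.2 FPKM of *Lcn2*, both genes of injured tubules, where the other knockout mice had 3.00 to 6.40 and 3.39 to 9.25. Where a count of calls in the lists below changed without either mouse, the count without it is given beside it. Shares of all genes given beside the lists are those of the full groups. The number of all genes called also changed when a mouse was left out.

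The upstream sequences of 3 ligands are shown here, because *Egf* and *Btc* were the members that changed in opposite directions, while *Areg* lies close to *Btc* and was barely read. *Btc*, *Areg* and *Ereg* lie in 1 stretch of chromosome 5 with *Epgn*, another ligand of the family. From *Epgn* to *Btc* the stretch runs from 91027464 to 91402994 (375.531 kb; coordinates are of mm10, the build named in the submitters' processing notes). *Egf* is on chromosome 3 from 129677575 to 129755322 on the minus strand. Each sequence is the 250 bases before the RefSeq start site (GRCm38.p6), 5′ to 3′ along the strand of the gene, for *Egf* chr3:129755323-129755572 (minus), for *Btc* chr5:91402995-91403244 (minus) and for *Areg* chr5:91139349-91139598 (plus). Capitals mark every match on either strand to a TATA box (TATAAA), an AP-1 site (TGACTCA), a cAMP response element (TGACGTCA), a GC box (GGGCGG) or a CCAAT box.
*Egf*: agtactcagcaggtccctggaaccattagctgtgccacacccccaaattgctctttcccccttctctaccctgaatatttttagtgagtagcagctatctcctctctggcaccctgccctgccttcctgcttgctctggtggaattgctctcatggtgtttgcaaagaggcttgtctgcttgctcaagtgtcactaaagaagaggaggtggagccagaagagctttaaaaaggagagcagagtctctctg
*Btc*: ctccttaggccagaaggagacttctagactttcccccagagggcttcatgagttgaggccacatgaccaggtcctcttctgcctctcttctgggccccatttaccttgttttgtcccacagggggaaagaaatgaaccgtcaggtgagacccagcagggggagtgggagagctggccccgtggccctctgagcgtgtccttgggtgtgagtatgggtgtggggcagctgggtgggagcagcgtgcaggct
*Areg*: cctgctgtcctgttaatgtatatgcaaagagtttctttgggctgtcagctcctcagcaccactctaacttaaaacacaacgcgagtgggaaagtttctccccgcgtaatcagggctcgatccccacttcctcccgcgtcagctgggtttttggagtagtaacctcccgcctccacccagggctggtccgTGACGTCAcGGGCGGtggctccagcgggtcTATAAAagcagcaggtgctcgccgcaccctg
The windows of *Egf* and *Btc* held none of these letter strings. The *Areg* window held a cAMP response element starting 61 bases before the start site, a GC box 52 bases before it and a TATA box 31 bases before it. Among 32851 promoter windows of the same length, 12.4% held the TATA box, 4.46% the AP-1 site, 1.55% the cAMP response element, 32.7% the GC box and 33.8% the CCAAT box. The *Egf* window held 0 CpG dinucleotides, the *Btc* window 4 and the *Areg* window 15, beside a median of 6 over all windows (quartiles 2 and 16). *Egf* had a second promoter entry, 30236 bases inside the gene (chr3:129725087-129725336, minus), whose window held 15 CpG and, like the first, none of the letter strings. Promoter entries were matched for 7 of the 10 members.

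*Egf* was the dominant ligand of the family in all 12 kidneys and was lower in RC/RC than in WT mice. It was at 344, 553, 278 and 372 FPKM in WT mice B6_2, B6_3, B6_4 and B6_6, at 269, 87.7, 111 and 178 FPKM in RC/RC mice RC105, RC139, RC140 and RC143, and at 226, 501, 207 and 375 FPKM in knockout mice Del3_42, Del3_60, Del3_70 and Del3_105. Every RC/RC mouse lay below every WT mouse, with RC/RC mouse RC105 just under the lowest WT mouse. The knockout mice spanned both ranges, with mice Del3_60 and Del3_105 among the WT values and mice Del3_42 and Del3_70 among the RC/RC values, which are the same pairs that were close over all genes. *Egf* fell in RC/RC mice by 1.27 on the log2 scale (SE 0.35, 0.415-fold, adjusted p = 0.0445). The difference of knockout from RC/RC mice was 1.03 (SE 0.39, adjusted p = 0.111) and that from WT mice was −0.24 (SE 0.31, adjusted p = 0.677), and neither passed the threshold of 0.05. In bulk tissue, fewer cells of a type and less RNA per cell cannot be told apart.

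The call for *Egf* was close to the threshold. It held in 6 of 8 other ways of processing the counts (adjusted p from 0.00134 to 0.0650) and in 2 of the 8 fits that left out 1 mouse (adjusted p from 0.0174 to 0.121), those without WT mouse B6_4 and without RC/RC mouse RC105. Without RC/RC mouse RC105 the log2 fold change was −1.64 (adjusted p = 0.0174), and without RC/RC mouse RC140, where the adjusted p was highest, it was −1.13. The direction was the same in all 16.

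Beside *Egf*, markers of the 2 segments that make it were examined. Of 6 distal convoluted tubule markers, 5 were lower in RC/RC than in WT mice (median log2 fold change −1.44 beside −0.02 over all genes), where 3.18% of the 15243 genes tested were called lower. *Calb1*, a calcium-binding protein of this segment, fell by 2.17 (adjusted p = 0.00415) and *Slc12a3*, its sodium chloride cotransporter, by 2.03 (adjusted p = 0.00444). *Slc12a3* was at 304, 291, 238 and 349 FPKM in the WT mice, at 118, 43.8, 43.8 and 86.6 FPKM in the RC/RC mice and at 99.6, 273, 177 and 240 FPKM in the knockout mice. Of the same 6 markers 2 were higher in the knockout than in RC/RC mice, beside 7.23% of all genes, *Slc12a3* (1.44, adjusted p = 0.0454) and *Wnk4*, a kinase that regulates this cotransporter (0.66, adjusted p = 0.0275). The number was 0 to 3 when 1 mouse was left out (3 without RC/RC mouse RC105 and 1 without knockout mouse Del3_70), with *Slc12a3* called in 2 of the 8 fits and *Wnk4* in 4. Against WT mice 1 was lower in the knockout, *Calb1* (−1.73, adjusted p = 0.0449), beside 0.893% of all genes. This call held in 4 of 8 other ways of processing and in 1 of the 8 fits that left out 1 mouse, the one without WT mouse B6_4. None of the 7 thick ascending limb markers passed in any of the 3 comparisons (median −0.31 in RC/RC against WT). When RC/RC mouse RC105 was left out, 1 of the 7 was lower in RC/RC than in WT mice and 1 was higher in the knockout than in RC/RC mice. *Umod*, the most abundant of them, was at 952 to 1503 FPKM in RC/RC mice and at 1161 to 2076 FPKM in WT mice, and the groups overlapped.

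The summed level of the 6 distal convoluted tubule markers was 545, 536, 369 and 543 FPKM in the WT mice, 203, 102, 104.9 and 165 FPKM in the RC/RC mice and 187, 399, 256 and 364 FPKM in the knockout mice, with *Slc12a3* the most abundant and no marker at 0. RC/RC mice were again below all WT mice. The sum of the 7 thick ascending limb markers was 1545 to 2697 FPKM in WT, 1269 to 1995 FPKM in RC/RC and 1374 to 2337 FPKM in knockout mice, with none at 0, and these ranges overlapped. The ratio of *Egf* to *Umod* was 0.211 to 0.266 in WT, 0.0921 to 0.179 in RC/RC and 0.183 to 0.278 in knockout mice. The ratio of *Egf* to *Slc12a3* ran the other way, at 1.06 to 1.90, 2.00 to 2.53 and 1.17 to 2.27. Relative to *Umod*, *Egf* was thus lower in every RC/RC mouse than in every WT mouse, and relative to *Slc12a3* it was higher. Against the distal convoluted tubule the direction depended on the marker. Of the other markers in that list, *Calb1*, *Klhl3* and *Pvalb* also fell more than *Egf* in RC/RC mice, while *Wnk4* and *Trpm6* fell less. The part of segment loss in the level of *Egf* was not tested.

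**Figure D1:**
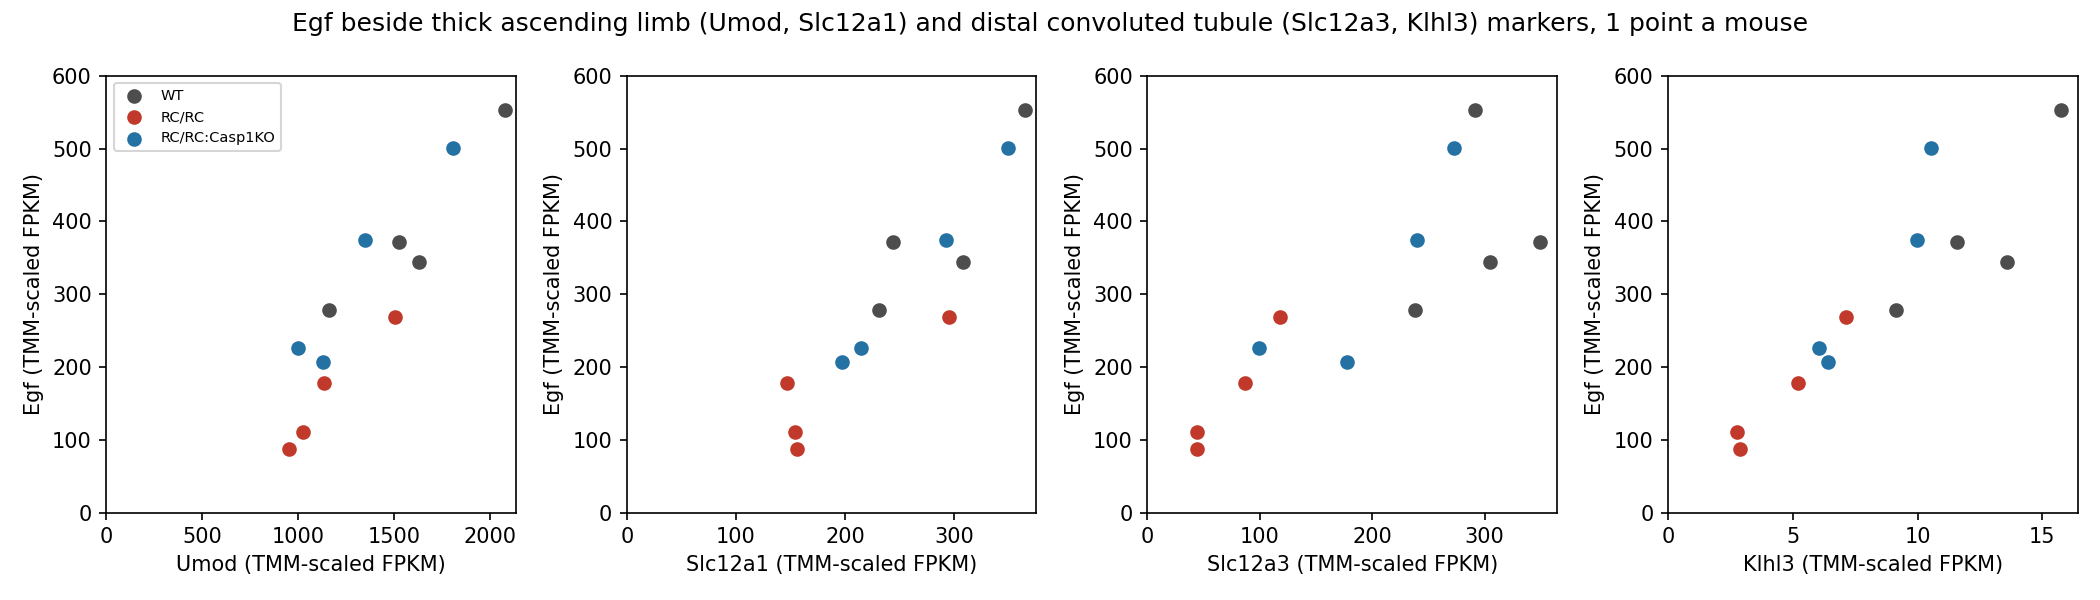
*Egf* (vertical axis, TMM-scaled FPKM) against *Umod*, *Slc12a1*, *Slc12a3* and *Klhl3* (horizontal axes, TMM-scaled FPKM) with 1 point per mouse, in WT (grey), RC/RC (red) and knockout (blue) mice. The RC/RC mice lie below all WT mice for *Egf*, at 87.7 to 269 FPKM, with knockout mice Del3_42 and Del3_70 within that range, and *Egf* tended to be higher where a marker was higher in each panel.

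Across the 12 mice, *Egf* varied with these markers. Pearson's r of log2 CPM was 0.88 for *Umod*, 0.91 for *Slc12a1* (the sodium potassium chloride cotransporter of the thick ascending limb), 0.92 for *Slc12a3* and 0.96 for *Klhl3*, a regulator of WNK kinases in the distal tubule. With the group means removed, r was 0.91, 0.85, 0.84 and 0.95, so mice of the same group differed along the same line. *Pvalb*, parvalbumin of the early distal convoluted tubule, was less alike (r = 0.54, and 0.18 within groups). Among 14163 genes with a mean of at least 1 CPM, the 5 most like *Egf* were *Wnk1* (0.98), *Fbxo18* (0.97), *Casr* (0.97), *4930402H24Rik* (0.96) and *Scn4b* (0.96), with r from 0.92 to 0.96 within groups. These are descriptions over 12 libraries that share depth, scaling and tissue composition.

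*Btc* encodes betacellulin, a ligand of EGFR and ERBB4, and was the member that rose. It was at 1.93, 3.56, 1.91 and 2.10 FPKM in WT mice B6_2, B6_3, B6_4 and B6_6, at 5.66, 3.02, 4.48 and 4.45 FPKM in RC/RC mice RC105, RC139, RC140 and RC143, and at 4.64, 4.15, 4.01 and 5.16 FPKM in knockout mice Del3_42, Del3_60, Del3_70 and Del3_105. WT mouse B6_3 was above RC/RC mouse RC139, which is the only overlap between these groups, and all 4 knockout mice lay above all 4 WT mice. *Btc* rose in RC/RC against WT mice by 0.88 on the log2 scale (SE 0.25, 1.85-fold, adjusted p = 0.0485). The call held in all 8 other ways of processing (adjusted p from 0.0110 to 0.0492) and in 2 of the 8 fits that left out 1 mouse (adjusted p from 0.0172 to 0.129), those without WT mouse B6_3 and without RC/RC mouse RC139. Without RC/RC mouse RC105 the difference was 0.73 (adjusted p = 0.104). Knockout mice differed from RC/RC mice by 0.03 (SE 0.18, adjusted p = 0.930). Their difference from WT mice was 0.93 (SE 0.21, adjusted p = 0.0655), and it passed in 4 of 8 other ways of processing (adjusted p from 0.00350 to 0.0696). Apart from DESeq2, the ways in which it passed scaled to library size alone.

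Of the 8 members that could be tested, 2 were called in RC/RC against WT mice, 1 higher and 1 lower, where 12.9% of the 15243 genes tested were called, 9.76% higher and 3.18% lower. In the knockout against RC/RC mice 0 of 8 were called beside 11.6% of 15428 genes (7.23% higher and 4.41% lower). In the knockout against WT mice 0 of 8 were called beside 2.03% of 15346 genes (1.13% higher and 0.893% lower). At an unadjusted p under 0.05 there were 3 members against RC/RC mice (*Egf*, *Hbegf* and *Erbb3*) and 4 against WT mice (*Hbegf*, *Btc*, *Erbb2* and *Erbb3*), beside 4889 and 3343 of all genes. DESeq2's Wald test called 2 members in each of these last comparisons, beside 3182 and 1390 of all genes. They were *Egf* and *Erbb3* against RC/RC and *Btc* and *Erbb3* against WT. The groups did not overlap for 1, 1 and 3 of the 8 members in the 3 comparisons, beside 19.3%, 20.5% and 13.7% of all genes tested. The median log2 fold change of the 8 was −0.09, 0.27 and 0.23, beside −0.02, −0.03 and 0.01 over all genes. The comparisons share mice, since each group enters 2 of the 3.

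**Figure D2:**
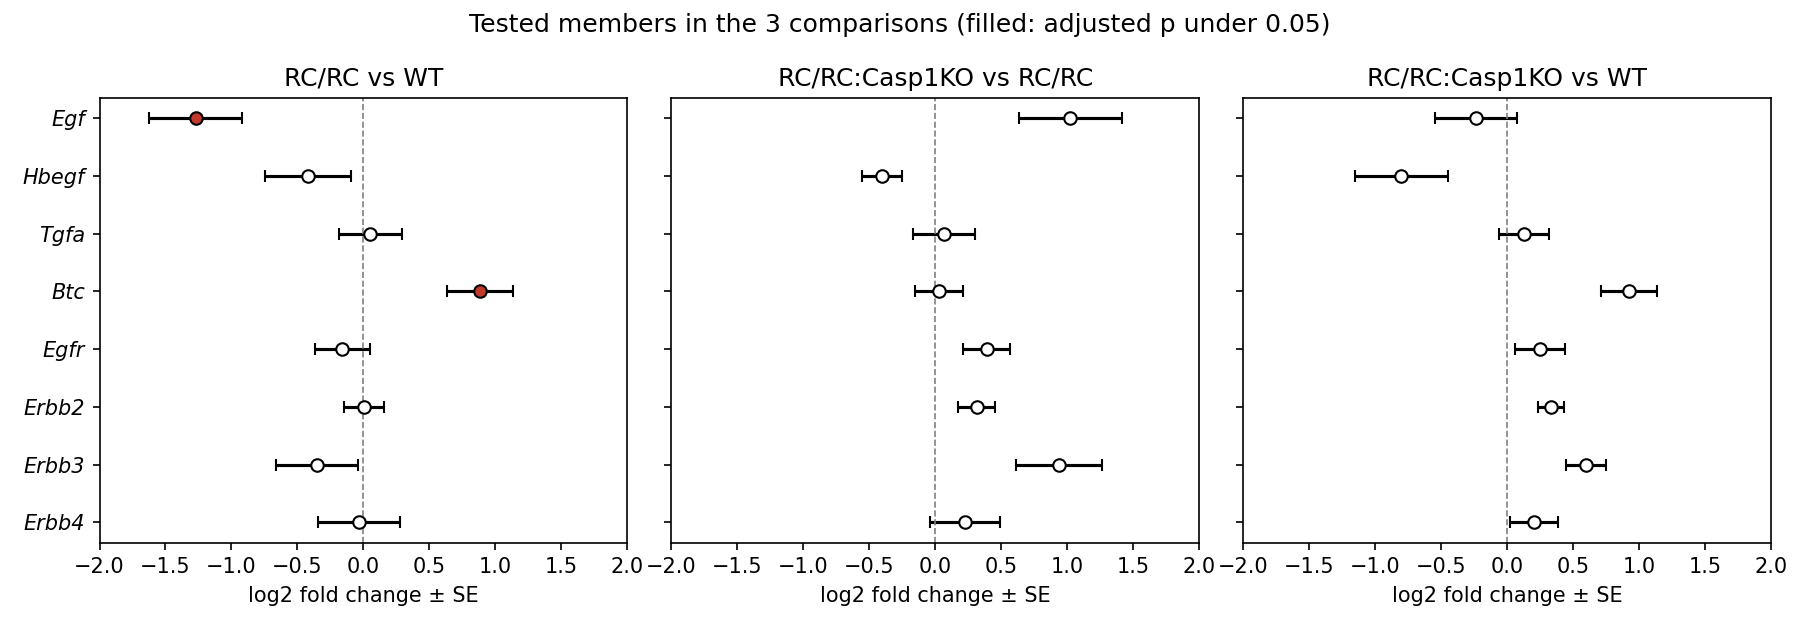
Log2 fold changes (horizontal axes, points with SE bars) of the 8 tested members in the 3 comparisons, filled where the adjusted p was under 0.05. *Egf* at −1.27 and *Btc* at 0.88 in RC/RC against WT mice are the filled points.

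*Hbegf* encodes heparin-binding EGF-like growth factor, a ligand of EGFR and ERBB4 that is made in injured tubules. It was at 5.62, 4.26, 9.68 and 14.2 FPKM in WT mice B6_2, B6_3, B6_4 and B6_6, at 6.47, 6.23, 6.55 and 6.23 FPKM in RC/RC mice and at 5.46, 4.02, 5.90 and 3.90 FPKM in knockout mice. The 4 RC/RC mice were nearly equal, with a coefficient of variation of 2.60%, while WT mice B6_4 and B6_6 were well above WT mice B6_2 and B6_3 (52.9%). Every knockout mouse lay below every RC/RC mouse. That difference was −0.40 (SE 0.15, adjusted p = 0.111) and did not pass, nor did RC/RC against WT mice (−0.42, SE 0.33, adjusted p = 0.420) or the knockout against WT mice (−0.80, SE 0.35, adjusted p = 0.229). WT mice B6_4 and B6_6 were also the highest of their group for *Egfr*, and they are one of the close pairs named above.

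*Tgfa*, transforming growth factor alpha, a high-affinity ligand of EGFR, was low in the 3 groups. It was at 1.42 to 2.13 FPKM in WT, 1.51 to 2.92 in RC/RC and 1.53 to 2.51 in knockout mice. All ranges overlapped, and the highest value was that of RC/RC mouse RC105. The log2 fold changes were 0.05 (SE 0.24), 0.07 (SE 0.23) and 0.13 (SE 0.19) in the 3 comparisons (adjusted p from 0.718 to 0.905), and the first turned negative in 2 of the 8 fits that left out 1 mouse. The 5 genes most like *Tgfa* over the 12 mice were *Dag1* (0.91), *Rab43* (0.91), *Sgpl1* (0.90), *Mfap3* (0.88) and *Rnf43* (0.87), with r from 0.88 to 0.92 within groups.

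*Ereg* (epiregulin) and *Areg* (amphiregulin), both ligands that other tissues make after injury, were at the limit of detection and did not pass the filter on low counts. For *Ereg*, 1, 1, 1 and 0 reads were counted in WT mice B6_2, B6_3, B6_4 and B6_6, against 4, 7, 3 and 8 in RC/RC mice RC105, RC139, RC140 and RC143 and 2, 2, 6 and 2 in knockout mice Del3_42, Del3_60, Del3_70 and Del3_105. Each RC/RC mouse and each knockout mouse had more reads than any WT mouse. Summed over mice and scaled, 22 reads in RC/RC against 3 in WT gave a ratio of 7.04 (exact 95% interval 2.12 to 36.7, counting error only), and 12 reads in the knockout mice gave a ratio of 3.82 to WT (1.03 to 21.1). When all genes with at least 1 count were tested, *Ereg* in RC/RC against WT had an adjusted p of 0.0671, and with DESeq2 0.0780. *Areg* had 1, 4 and 4 reads in all in the 3 groups, those of the knockout group all in mouse Del3_60, so no difference was detectable at this depth.

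**Figure D3:**
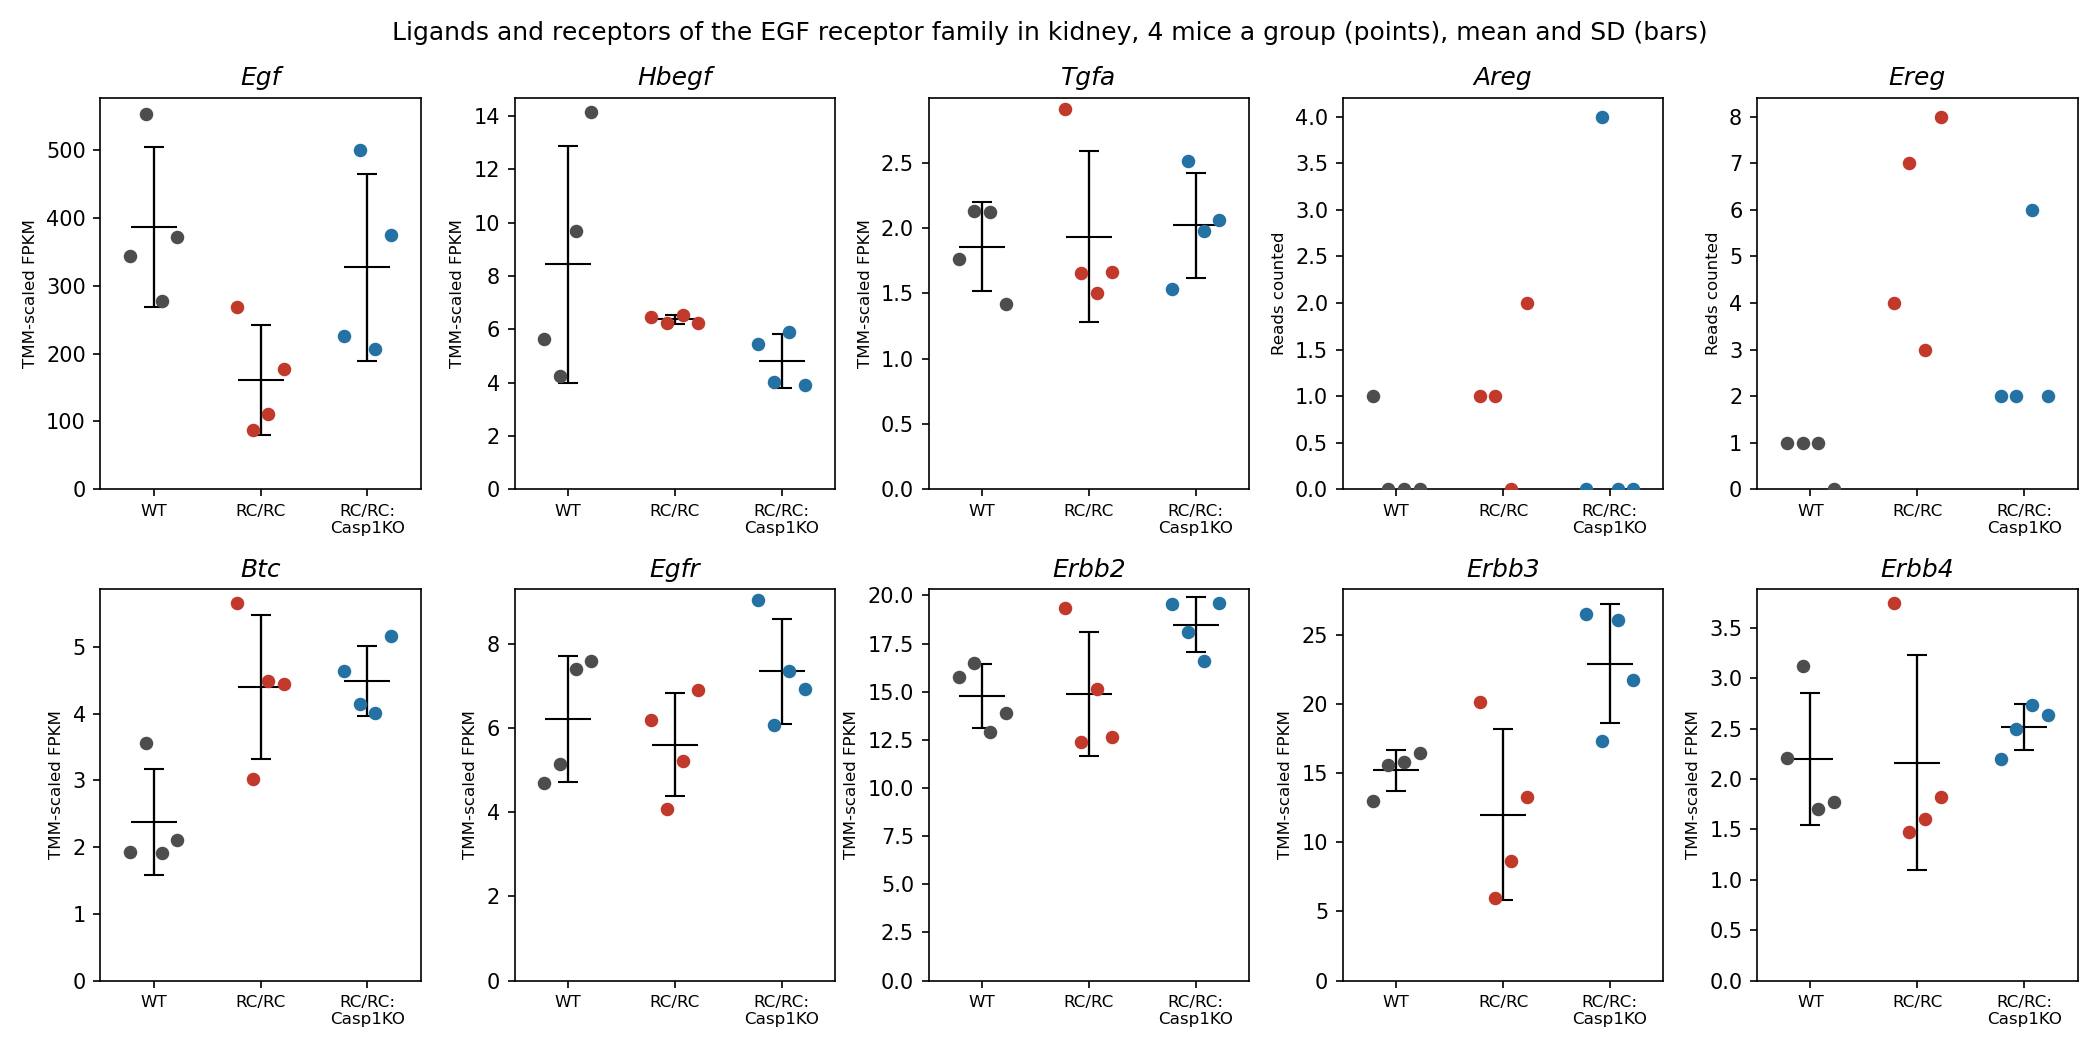
Levels of the 10 members in each mouse (points), in TMM-scaled FPKM with the mean and SD (bars) of 4 mice a group, and for *Areg* and *Ereg* in reads counted. For *Egf* the RC/RC mice lie at 87.7 to 269 FPKM, below all WT mice, and for *Btc* the knockout mice lie at 4.01 to 5.16 FPKM, above all WT mice.

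The order of the ligands by level per length was the same down to *Tgfa* in all groups. *Egf* was followed by *Hbegf*, *Btc* and *Tgfa*, with *Ereg* and *Areg* last. *Egf* was at 387 ± 118, 161 ± 81.3 and 327 ± 138 FPKM (SD, n = 4 each) in WT, RC/RC and knockout mice, and *Hbegf* at 8.43 ± 4.46, 6.37 ± 0.166 and 4.82 ± 1.01. *Btc* was at 2.38 ± 0.795, 4.40 ± 1.08 and 4.49 ± 0.523 and *Tgfa* at 1.86 ± 0.340, 1.94 ± 0.658 and 2.02 ± 0.401. *Btc* and *Tgfa* overlapped in WT mice and not in the other groups, and *Hbegf* and *Btc* overlapped in the knockout mice, where *Hbegf* was higher in 2 of 4. *Egf* made up 95.3% to 98.2% of the summed ligand FPKM in WT, 88.8% to 94.7% in RC/RC and 94.5% to 97.9% in knockout mice. *Hbegf* exceeded *Btc* in all WT and RC/RC mice, with a median ratio of 3.99 in WT, 1.43 in RC/RC and 1.07 in knockout mice.

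None of the 4 receptors passed in any comparison in the main edgeR fits with TMM factors. In the knockout, *Erbb3* was called in 1 of 8 other ways of processing against RC/RC mice and in 4 of 8 against WT mice. *Erbb2* was called in 3 of 8 against WT mice. Those 3, and 3 of the 4 of *Erbb3* against WT mice, scaled to library size alone. *Egfr*, the receptor of all 6 ligands, was at 4.69, 5.15, 7.41 and 7.60 FPKM in WT mice, 6.20, 4.09, 5.23 and 6.90 FPKM in RC/RC mice and 9.05, 6.08, 7.34 and 6.94 FPKM in knockout mice. All 3 groups overlapped. The log2 fold changes were −0.16 (SE 0.21, adjusted p = 0.642) for RC/RC against WT, 0.39 (SE 0.18, adjusted p = 0.170) for the knockout against RC/RC and 0.25 (SE 0.19, adjusted p = 0.455) for the knockout against WT mice. The 5 genes most like *Egfr* were *Slc28a1* (0.96), *Zkscan1* (0.95), *Kansl1l* (0.95), *Coro7* (0.94) and *Rnmt* (0.94), with r from 0.93 to 0.95 within groups.

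*Erbb3*, the partner receptor that recruits PI3 kinase, varied widely among RC/RC mice (coefficient of variation 51.6%, beside 9.94% in WT mice). It was at 13.0, 15.6, 15.8 and 16.4 FPKM in WT mice, 20.1, 5.99, 8.61 and 13.3 FPKM in RC/RC mice RC105, RC139, RC140 and RC143 and 26.5, 17.3, 26.1 and 21.7 FPKM in knockout mice. Every knockout mouse was above every WT mouse, and RC/RC mouse RC105 was above 1 knockout mouse. The difference of the knockout from RC/RC mice was 0.94 (SE 0.33, adjusted p = 0.0871), that of the knockout from WT mice was 0.60 (SE 0.15, adjusted p = 0.0830) and that of RC/RC from WT mice was −0.35 (SE 0.31, adjusted p = 0.478).

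*Erbb2*, the shared partner receptor, was at 15.8, 16.5, 12.9 and 13.9 FPKM in WT, 19.3, 12.4, 15.1 and 12.6 FPKM in RC/RC and 19.6, 18.1, 16.6 and 19.6 FPKM in knockout mice. The knockout mice lay above all WT mice by a small step. The log2 fold changes were 0.00 (SE 0.15, adjusted p = 0.989) for RC/RC against WT mice, 0.32 (SE 0.14, adjusted p = 0.159) for the knockout against RC/RC mice and 0.33 (SE 0.10, adjusted p = 0.120) for the knockout against WT mice. *Erbb4*, a receptor of neuregulins and of *Hbegf* and *Btc*, was at 1.70 to 3.12 FPKM in WT, 1.47 to 3.75 in RC/RC and 2.20 to 2.73 in knockout mice, and no comparison passed (log2 fold changes −0.03, 0.22 and 0.20, adjusted p from 0.535 to 0.958).

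No receptor was called between the full knockout and RC/RC groups in the main fits, and this changed when RC/RC mouse RC105 was left out. Without it, 4 of the 8 members were called higher in knockout than in RC/RC mice. They were *Egf* (1.36, adjusted p = 0.0436), *Erbb2* (0.44, adjusted p = 0.0361), *Erbb3* (1.28, adjusted p = 0.0248) and *Erbb4* (0.60, adjusted p = 0.0213). In both directions together, 2789 of all genes were called in that fit in place of 1797, and the share called higher is not given here. Without knockout mouse Del3_70, 0 of the 8 were called. In the knockout against WT mice *Btc*, *Erbb2* and *Erbb3* were called with library size alone and with limma on log2(FPKM + 1) or log2(FPKM + 0.1), where 352, 327 and 347 of all genes were called. The limma fits used FPKM scaled to library size alone, so these settings share the same scaling.

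By level per length *Erbb3* and *Erbb2* led in all groups and overlapped each other, *Egfr* came next and *Erbb4* was last. *Egfr* and *Erbb4* did not overlap in any group, and *Erbb3* and *Egfr* overlapped only in RC/RC mice. The summed receptor level was 35.7 to 40.3 FPKM in WT, 23.9 to 49.4 FPKM in RC/RC and 44.0 to 57.3 FPKM in knockout mice, so that all knockout mice were above all WT mice. *Egfr* made up 12.8% to 19.6% of it in WT mice, 12.6% to 19.9% in RC/RC mice and 13.6% to 15.8% in knockout mice. Over the 12 mice the receptors most alike were *Egfr* and *Erbb3* (r = 0.79, and 0.71 within groups) and *Erbb2* and *Erbb4* (0.78 and 0.79), again as a description of libraries that share depth and composition.

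Genes around the family were counted from lists chosen with earlier results of these data known. Of the 5 other ligands, *Nrg1*, neuregulin 1, which binds ERBB3 and ERBB4, was the most abundant at 2.19 to 4.12 FPKM, *Nrg3* was at 0 in every mouse, and 0 of the 3 tested passed in RC/RC against WT or in the knockout against RC/RC mice, and 0 of 2 in the knockout against WT mice. Of 8 genes for shedding of ligands, 1 was called, lower, in RC/RC against WT mice and 0 in the other comparisons, beside 3.18% of all genes called lower in the first. It was *Rhbdl2*, a membrane protease of the rhomboid family, which fell by 1.68 (adjusted p = 0.0222) from 0.484 to 1.22 FPKM in WT to 0.192 to 0.461 FPKM in RC/RC mice, and which was called in 4 of 8 fits that left out 1 mouse. In knockout mice *Rhbdl2* was at 0.160 to 0.621 FPKM, with a mean of 0.307 beside 0.309 in RC/RC mice. It had few reads, 17 to 43 in WT, 6 to 20 in RC/RC and 5 to 23 in knockout mice. *Adam17* and *Adam10*, the main sheddases of ERBB ligands, did not pass, with log2 fold changes of 0.01 and 0.26.

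Among 10 receptor inhibitors, *Errfi1* changed most in the comparisons with WT mice. It encodes MIG6, which binds the kinase of activated EGF receptors and blocks it, and it is induced by signalling of the same receptors. It was at 207, 225, 217 and 290 FPKM in WT mice, 61.3, 106, 104.6 and 157 FPKM in RC/RC mice and 129, 88.8, 80.8 and 72.4 FPKM in knockout mice. Both mutant groups lay below all WT mice and overlapped each other. *Errfi1* fell by 1.14 (SE 0.26, adjusted p = 0.0209) in RC/RC and by 1.33 (SE 0.20, adjusted p = 0.0144) in the knockout against WT mice, while the knockout differed from RC/RC mice by −0.22 (adjusted p = 0.638). In each of these comparisons it was the 1 of 10 called lower, beside 3.18% and 0.893% of all genes. Both calls held in all 8 other ways of processing, the first in 5 and the second in 7 of 8 fits that left out 1 mouse. The first was lost without WT mouse B6_6, RC/RC mouse RC139 or RC/RC mouse RC140 (adjusted p up to 0.0628) and the second without knockout mouse Del3_70 (adjusted p = 0.0501). *Lrig2*, counted in this list with the other LRIG genes, was higher in the knockout than in RC/RC mice (0.53, adjusted p = 0.0318), in 2 of 8 such fits. Whether it restrains these receptors was not tested. Of the 10, 1 was higher in the knockout than in RC/RC mice, beside 7.23% of all genes, with 2 higher without RC/RC mouse RC105 and 0 without knockout mouse Del3_70. The other receptor inhibitors were not called in any comparison of the full groups.

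The feedback inhibitors of Ras and ERK signalling, which that signalling itself induces, gave 3 genes of 8 higher and 0 lower in RC/RC against WT mice (median log2 fold change 0.18), beside 9.76% of all genes called higher. These were *Spry2* (0.86, adjusted p = 0.00616) and *Spry1* (0.78, adjusted p = 0.0110), Sprouty proteins that act upstream of RAF, and *Dusp5* (0.87, adjusted p = 0.0338), a nuclear ERK phosphatase. *Spry2* was at 4.91 to 7.85 FPKM in WT, 9.95 or more in each RC/RC mouse and 7.31 to 8.39 in knockout mice. RC/RC mice were above all others. In the knockout against RC/RC mice 3 of 8 were lower and 0 higher, beside 4.41% of all genes called lower. They were *Spry1* (−0.60, adjusted p = 0.0475), *Spry2* (−0.51, adjusted p = 0.0166) and *Spred1* (−0.34, adjusted p = 0.0418), a RAF inhibitor. The number was between 0 and 3 over the other ways of processing and between 0 and 2 over fits that left out 1 mouse, with 2 without RC/RC mouse RC105 and 1 without knockout mouse Del3_70. *Spry2* was called in 6 of these 8 fits, and *Spry1* and *Spred1* each in 1. In RC/RC against WT mice *Spry1* and *Spry2* were called in all 8 such fits and *Dusp5* in 3. *Dusp6*, the cytoplasmic ERK phosphatase and the most abundant gene of the list, did not pass in any comparison (log2 fold changes −0.20, −0.34 and −0.52).

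Genes that ERK signalling induces, and that many other signals induce too, were counted next. Of 12 listed, 7 were higher and 1 lower in RC/RC than in WT mice, with a median log2 fold change of 1.09, beside 9.76% and 3.18% of all genes. These were 6 and 1 without RC/RC mouse RC105. *Egr2*, an early zinc finger factor, rose by 3.38 (SE 0.53, adjusted p = 0.00391) and *Egr1* by 1.81 (SE 0.24, adjusted p = 0.00207). *Egr1* was at 2.38, 1.52, 2.19 and 3.54 FPKM in WT mice, 9.87, 8.22, 6.61 and 9.28 FPKM in RC/RC mice and 4.08, 2.45, 6.91 and 5.88 FPKM in knockout mice. All RC/RC mice were above all WT mice, and the knockout mice overlapped both. The gene that fell was *Etv5*, an ETS factor (−0.53, adjusted p = 0.0193).

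In the knockout against RC/RC mice 4 of the 12 were lower and 0 higher (median −0.68), beside 4.41% of all genes called lower. They were *Egr2* (−2.19, adjusted p = 0.0400), *Myc* (−1.23, adjusted p = 0.0191), *Junb* (−1.06, adjusted p = 0.0237) and *Ier2* (−0.74, adjusted p = 0.0209). *Myc* was at 2.70, 3.04, 2.38 and 1.43 FPKM in WT mice, 5.11, 8.14, 8.22 and 4.73 FPKM in RC/RC mice and 1.88, 3.06, 2.85 and 3.37 FPKM in knockout mice. The RC/RC mice were above both other groups, which overlapped. Knockout mouse Del3_70 had the highest *Fos* of all 12 mice, 2.69 FPKM, and without it 5 of the 12 were lower. Against WT mice 0 of the 12 were called in the knockout (median 0.37). The number of genes called higher in RC/RC against WT mice ran from 6 to 9 over other ways of processing and from 6 to 8 over fits that left out 1 mouse, and the number lower in the knockout against RC/RC mice from 3 to 6 and from 0 to 5. With 1 mouse left out, *Myc* was called lower in 6 of 8 fits, *Ier2* in 5, *Junb* in 4 and *Egr2* in 3.

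**Figure D4:**
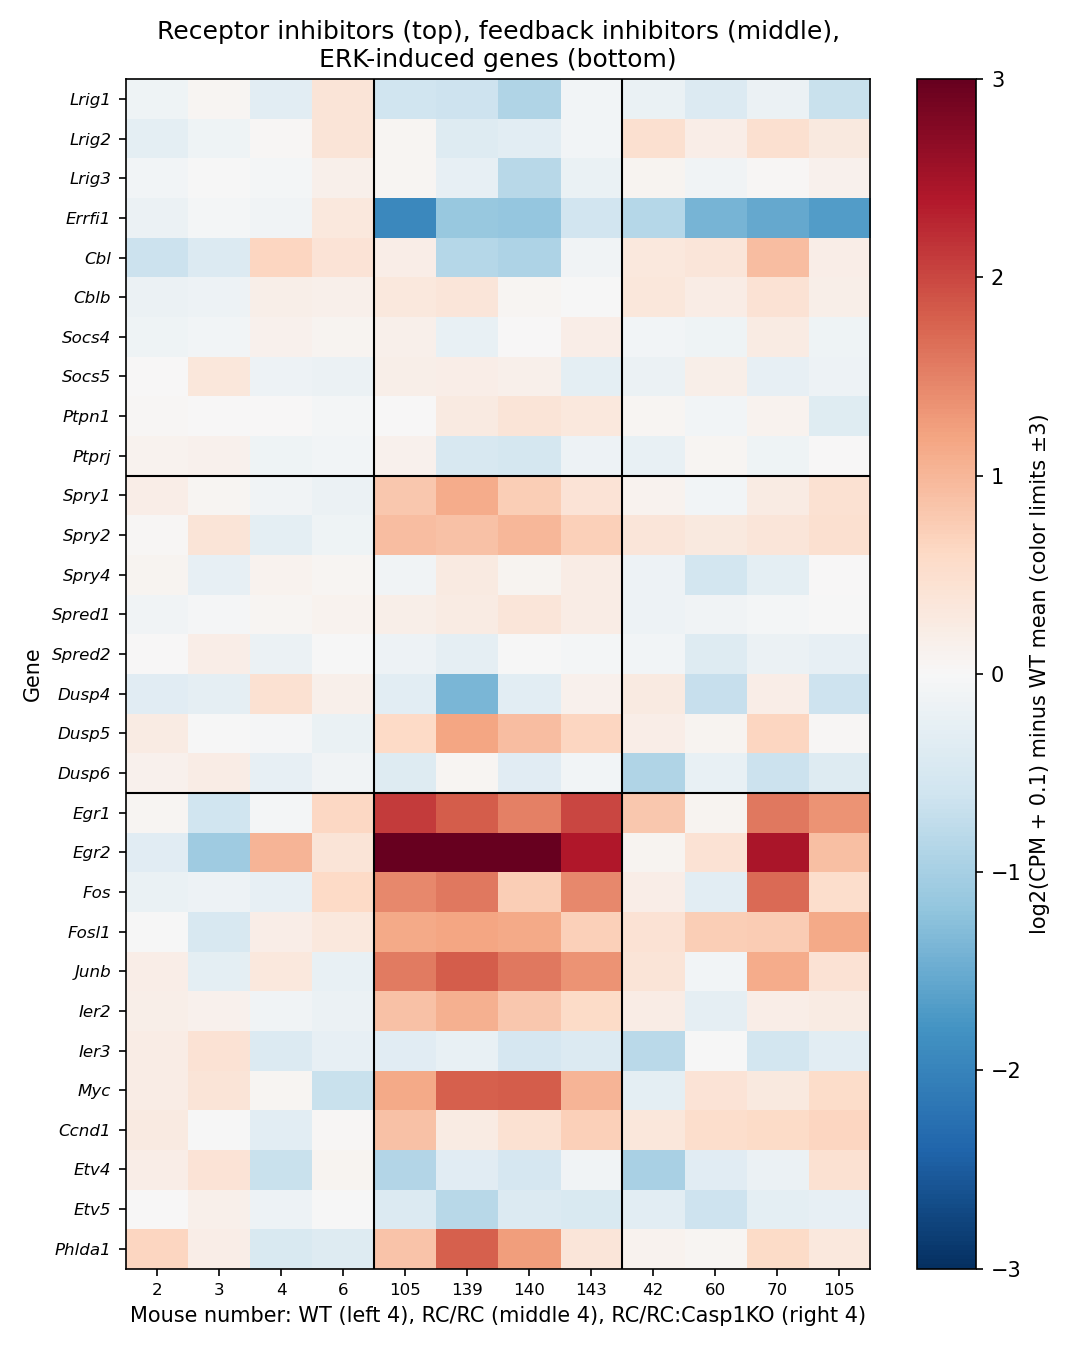
Receptor inhibitors (top), feedback inhibitors (middle) and ERK-induced genes (bottom), 30 genes in rows, in the 12 mice in columns by group. Color gives log2(CPM + 0.1) minus the WT mean with limits at ±3, and *Junb* and *Myc* are highest in the 4 RC/RC mice, *Egr1* and *Egr2* are above the WT mean in all 4 of them, and *Errfi1* is blue in both mutant groups.

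Few receptor adaptors and kinases of the cascade were called. Of 9 adaptors, 1 was higher in RC/RC than in WT mice, *Pik3r1*, the regulatory subunit of PI3 kinase (0.52, adjusted p = 0.0445), a share near the 9.76% of all genes. In the same list 2 were lower in the knockout than in RC/RC mice, *Grb2*, which links receptors to SOS (−0.40, adjusted p = 0.0239), and the kinase *Src* (−0.33, adjusted p = 0.0469), beside 4.41% of all genes. Without RC/RC mouse RC105, 0 adaptors were called in the first comparison, and without knockout mouse Del3_70, 1 in the second. Of 10 genes from RAS to ERK, 0 were called in RC/RC against WT mice. *Araf*, a RAF kinase, was higher in the knockout than in RC/RC mice (0.51, adjusted p = 0.0220), 1 of 10 beside 7.23% of all genes, and without RC/RC mouse RC105 another gene of the list was lower. With 1 mouse left out, *Pik3r1* was called in 2 of 8 fits, *Grb2* in 4, *Src* in 1 and *Araf* in 5. Against WT mice the knockout had 0 calls in either list.

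EGF raises the activity of TRPM6, the magnesium channel of the distal convoluted tubule, so genes of magnesium transport were counted. *Trpm6* was at 2.00, 2.99, 1.27 and 2.58 FPKM in WT mice, 1.64, 0.857, 0.696 and 1.91 FPKM in RC/RC mice and 1.79, 2.69, 2.26 and 2.65 FPKM in knockout mice, with overlap between all groups. Its log2 fold change in RC/RC against WT mice was −0.79 (adjusted p = 0.175). Of the 6 genes 2 were lower in that comparison, beside 3.18% of all genes. They were *Pvalb* (−1.40, adjusted p = 0.00855), which is also a marker of the segment, and *Cnnm2*, a basolateral magnesium protein (−0.67, adjusted p = 0.0121). None passed in the other comparisons.

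Markers of other states and cells moved with the groups too. In RC/RC against WT mice 7 of 8 markers of injured tubules, 7 of 8 leukocyte markers and 6 of 6 fibroblast markers were higher, with medians of 1.75, 1.77 and 1.88, beside 9.76% of all genes. The counts were 6, 6 and 5 without RC/RC mouse RC105. *Lcn2* rose by 5.54 and *Havcr1* by 4.90. The summed leukocyte markers were 51.0, 42.9, 44.3 and 35.4 FPKM in WT mice, 166, 187, 168 and 123 FPKM in RC/RC mice and 65.8, 77.3, 153 and 73.7 FPKM in knockout mice, led by *Lyz2* and with none at 0. The summed fibroblast markers were 63.2 to 79.0, 194 to 453 and 80.3 to 134 FPKM in the 3 groups, led by *Dcn* and with none at 0. RC/RC mice were highest in both sums, apart from knockout mouse Del3_70 for leukocyte markers, which was within the RC/RC range. In the knockout against RC/RC mice 0 of 8 leukocyte, 1 of 8 injured tubule and 4 of 6 fibroblast markers were called, all lower, beside 4.41% of all genes. Without knockout mouse Del3_70, 3 of 8 leukocyte (median −1.02), 5 of 8 injured tubule (median −1.51) and 5 of 6 fibroblast markers (median −1.56) were lower. Over all 8 fits that left out 1 mouse these counts ran from 0 to 3, 0 to 5 and 1 to 6, and the injured tubule call of the full groups (*Krt8*) held in 2. The 4.41% is the share in the full groups and not in these fits. Against WT mice the knockout had 0 calls among leukocyte and injured tubule markers and 1 among fibroblast markers (*Dcn*, 1.02 higher), beside 1.13% of all genes called higher. The median log2 fold changes of the leukocyte, injured tubule and fibroblast markers were 1.08, 0.94 and 0.63. Those above 0 were 8 of 8, 8 of 8 and 5 of 6, beside 51.5% of all genes. Of the 6 proximal tubule markers 2 were lower in RC/RC than in WT mice and 2 higher in the knockout than in RC/RC mice, beside 3.18% and 7.23% of all genes, and none of the 5 collecting duct and 4 endothelial markers tested was called in any comparison. Leaving out RC/RC mouse RC105, 3 proximal tubule markers were lower in RC/RC than in WT mice and 1 collecting duct marker was lower in the knockout than in RC/RC mice. Of 5 podocyte markers 1 was lower in RC/RC than in WT mice (*Nphs1*, −0.62), beside the same 3.18%, and of 5 housekeeping genes 1 was lower in the knockout than in RC/RC mice (*Actb*, −0.82). Each was called in 2 of 8 fits that left out 1 mouse, and *Nphs1* in 5 of 8 other ways of processing. Without RC/RC mouse RC105, 0 podocyte markers were lower, 1 housekeeping gene was higher in RC/RC than in WT mice and 2 were lower in the knockout than in RC/RC mice, and without knockout mouse Del3_70 0 were. The part of these cells in the levels of *Btc*, *Ereg*, the Sprouty genes and the ERK-induced genes was not tested.

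Some members share sequence with other genes. *Egfr* overlaps an antisense gene that had at most 16 reads where *Egfr* had at least 793, and whether the counting used strand is not given in the sources used here. *Erbb2* overlaps *Mien1* on the opposite strand by 9 bases. *Erbb4* overlaps *Gm16076* and *Gm15670* on the same strand, which had at most 3 and 4 reads where *Erbb4* had at least 337. Stretches of at least 100 bases at 95% identity or more to transcripts of other genes were found for *Egf*, *Hbegf*, *Tgfa*, *Ereg* and *Egfr* in a separate set of reference transcripts. Reads in those stretches could be split between the genes only where the counting included both. Neither this nor whether the transcripts lie at the same locus was tested.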

How the data were processed

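RNA from the kidneys of 12 mice was analysed in 3 groups of 4. The authors deposited 1 table per gene with raw read counts and FPKM of each mouse and mean FPKM of each group. The submitters' processing notes name CASAVA 1.8, STAR and mm10, and the use of strand in counting is not given in the sources used here. Columns were assigned to groups by name, and by the study's methods each group is 4 different mice. Each pair of groups was fitted alone with edgeR 4.0.16 (R 4.3.3; TMM factors, filterByExpr, quasi-likelihood test, Benjamini-Hochberg adjustment over all genes tested, threshold 0.05). The FPKM levels given were computed from the counts with TMM-scaled totals. Likeness is Pearson's r of log2(CPM + 0.5). Alternatives were DESeq2 1.42.0, limma 3.58.1 on log2 FPKM, other scalings and filters, 1 fit of all 12 mice, and leaving out each mouse. The FPKM used by limma was scaled to library size alone, without TMM factors. Near copies were searched with BLAST 2.17.0. The members and gene lists were chosen with earlier results of these data known. Of each list the 2 called genes with the largest change in RC/RC against WT and in the knockout against RC/RC mice could be named, with the most abundant marker. Not all of these are named, and others named were chosen after their values were seen. A leukocyte marker without a row was not analysed here.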

Additional observations from a re-analysis of the deposited data

Results flagged for a closer look

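In 4 of 27 groups of 4 mice, 1 mouse lay farther from the others than Dixon's 95% critical value allows, which chance gives in about 1 of 20 groups. RC/RC mouse RC105 had 2.92 FPKM of *Tgfa* (next 1.67) and 3.75 FPKM of *Erbb4* (next 1.82). WT mouse B6_3 had 3.56 FPKM of *Btc* (next 2.10). WT mouse B6_2 had 1.37 FPKM of *Casp1* (next 0.939).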

How the results depend on the processing

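No paired analysis was possible because the groups hold different mice, the columns do not give the sex, and the only number that occurs in more than 1 group (RC105 and Del3_105) names different animals and is no sign of a pair. Members called in RC/RC against WT mice fell from 2 to 1 (*Btc*) with library size alone and with at least 10 counts in every mouse, and to 0 to 1 when 1 mouse was left out. Genes called in that comparison numbered 3018 with DESeq2 in place of 1971, and 1162 to 2440 with 1 mouse left out. In RC/RC:*Casp1*KO against RC/RC mice DESeq2 called 2 members (*Egf*, adjusted p = 0.0333, and *Erbb3*, 0.0256) and leaving out 1 mouse gave 0 to 4. All genes called there numbered 1797, with DESeq2 3182, library size alone 993, limma on log2(FPKM + 1) 1052, limma on log2(FPKM + 0.1) 1106, and 438 to 2789 with 1 mouse left out. Against WT mice the knockout had 2 members called with DESeq2 (*Btc*, 0.00350, and *Erbb3*, 0.0107), 3 with library size alone and 3 with either limma fit, which used the same scaling, and 0 to 1 with 1 mouse left out. All genes called there numbered 311, with DESeq2 1390, at least 10 counts 167, and 108 to 547 with 1 mouse left out. *Erbb2* in RC/RC against WT mice turned to −0.0158 with DESeq2 and −0.0135 with RLE factors, and *Erbb4* to 0.0879 with library size alone and 0.0131 with limma on log2(FPKM + 1). With 1 mouse left out, log2 fold changes crossed 0 for *Tgfa* (−0.23 to 0.16), *Erbb2* (−0.16 to 0.0731) and *Erbb4* (−0.44 to 0.18) in RC/RC against WT mice and for *Tgfa* (−0.0502 to 0.31) and *Btc* (−0.0881 to 0.15) in the knockout against RC/RC mice. Library size alone moved the median of all genes by 0.13 in the knockout against WT mice, to 0.14, where *Erbb2* was at 0.46, and it raised the share of calls that were higher from 75.4%, 62.1% and 55.9% to 86.1%, 82.0% and 79.8% in the 3 comparisons. Among 192 values under other processing 173 kept their direction and side of the threshold and 4 reversed, and among 192 with 1 mouse left out 160 did and 14 reversed. The causes were not tested. Groups of 4 mice with both sexes limit the precision, and *Areg* and *Ereg* are limited by depth.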
